A study of Mus musculus with 28 samples.

Results

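The natural killer gene complex of the mouse is a run of lectin-like receptor genes on chromosome 6. It was examined as the 580 windows of 5 kb at chr6:128400001-131300000 of build mm10, out of 526333 such windows on chromosomes 1 to 19 and X. The interval overlapped 105 genes, 55 of them protein-coding, of the 49554 genes of the RefSeq table used. The interval was selected on measured values, the H3K9me3 island reads over Klra4, a gene inside it, which were lower in MC38 Setdb1 KO than in MC38 control. For this reason H3K9me3 in MC38 Setdb1 KO against MC38 control is given as values and counts with no test, and nothing is read from it.

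The libraries came from chromatin immunoprecipitation after micrococcal nuclease digestion. One antibody bound H3K9me3, the trimethyl form of lysine 9 on histone H3, which is found in silenced chromatin. The other bound H3K9Ac, the acetyl form of the same residue, which is found at active promoters. The 4 groups were MC38 Setdb1 KO, MC38 control, B16 Setdb1 KO and B16 control, each with 3 replicates per mark and 24 libraries in all. MC38 is a mouse colon adenocarcinoma line, and B16 here is B16OVA, a mouse melanoma line. KO cells carried a CRISPR vector with a guide against Setdb1, the gene of an H3K9 methyltransferase, and control cells carried the same vector, pCRISPR-v2-puro, empty. All 4 groups were grown under puromycin. Whether KO cells were a clone or a pool, and whether replicates were separate cultures, was not given in the sources used here, so a p-value here weighs only the spread among these libraries, which may be technical. The study was about these marks at junctions of exons and transposable elements.

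The receptors of the complex let natural killer cells read the surface of other cells. The Ly49 receptors (Klra genes) and the CD94/NKG2 pairs (Klrd1 with Klrc genes) bind MHC class I molecules, and most inhibit the killer cell. NKG2D (Klrk1) activates it on binding stress ligands. The Nkrp1 receptors (Klrb1 genes) pair with Clec2 proteins, whose genes lie among theirs, and the myeloid lectins next to them, such as Dectin-1 (Clec7a), are used by macrophages and dendritic cells. The lines studied here are neither natural killer nor myeloid cells.

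The promoters shown here belong to genes with a difference in H3K9Ac between the lines (Klra4 and Clec2d), to the Ly49 gene whose promoter is most like that of Klra4 (Klra8), and to a broadly expressed autophagy gene that keeps the mark in every library (Gabarapl1). Each sequence runs 5′ to 3′ from 250 bases before to 50 bases after the gene start. The sequences are from RefSeq on GRCm38.p6, the assembly of mm10, and capitals mark each CG dinucleotide, which reads CG on both strands.
Klra4 (chr6:130067222-130067521, minus strand, 0 CG): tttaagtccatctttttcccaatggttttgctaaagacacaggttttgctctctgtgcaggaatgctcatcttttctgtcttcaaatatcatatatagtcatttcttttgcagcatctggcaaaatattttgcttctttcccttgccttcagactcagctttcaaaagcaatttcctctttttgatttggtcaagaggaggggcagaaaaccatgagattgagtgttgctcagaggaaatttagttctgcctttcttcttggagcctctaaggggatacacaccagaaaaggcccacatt
Klra8 (chr6:130129849-130130148, minus strand, 3 CG): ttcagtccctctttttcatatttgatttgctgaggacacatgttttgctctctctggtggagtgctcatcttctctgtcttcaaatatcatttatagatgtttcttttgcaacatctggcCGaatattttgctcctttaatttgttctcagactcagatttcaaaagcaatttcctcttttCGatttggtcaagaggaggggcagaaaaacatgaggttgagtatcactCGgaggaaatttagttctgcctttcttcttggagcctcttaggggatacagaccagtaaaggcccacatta
Clec2d (chr6:129180365-129180664, plus strand, 5 CG): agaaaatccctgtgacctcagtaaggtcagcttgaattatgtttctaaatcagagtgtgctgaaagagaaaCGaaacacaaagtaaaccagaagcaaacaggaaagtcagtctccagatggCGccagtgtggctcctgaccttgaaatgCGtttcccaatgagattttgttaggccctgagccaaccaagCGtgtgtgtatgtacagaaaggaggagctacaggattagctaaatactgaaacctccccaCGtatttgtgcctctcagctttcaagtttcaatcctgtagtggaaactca
Gabarapl1 (chr6:129532942-129533241, plus strand, 12 CG): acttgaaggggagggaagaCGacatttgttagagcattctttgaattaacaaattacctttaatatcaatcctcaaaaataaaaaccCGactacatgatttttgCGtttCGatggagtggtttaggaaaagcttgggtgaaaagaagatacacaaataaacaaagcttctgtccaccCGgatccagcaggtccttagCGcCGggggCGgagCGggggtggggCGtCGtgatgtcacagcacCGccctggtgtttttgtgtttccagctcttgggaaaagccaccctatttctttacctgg
The Klra4 and Klra8 promoters shared 259 identical bases over an alignment of 301 positions, an identity of 86.0%, which was the highest of the 55 pairs of Ly49 promoters compared. Reads of similar stretches of Ly49 genes may be assigned to the wrong copy. The promoter identities do not measure how often, and the island counts do not show it. The table held promoters for 58 of the 105 genes. The 68 promoters of these genes had a median of 3 CG, against 7 over all 32841 promoters of the table. At least 15 CG were found in 4 of the 68 promoters, which is 5.88%, against 34.6% of all promoters, and in none of the 13 Ly49 promoters.

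Island reads per library ran between 15200766 and 45419584 for H3K9me3 and between 28453371 and 78087809 for H3K9Ac. An island is a stretch called enriched in 1 library, so a value of 0 means that no island was called there. RPM stands for island reads scaled to 1000000 reads per library by TMM-adjusted totals, and the RPM of windows and of gene regions (gene body and 2 kb on each side) are on different scales. A fold change is not given where a group had no island in all 3 libraries. No 2 replicates were copies of each other, since their counts differed by a chi-square of 50.2 to 168 per degree of freedom. MC38 Setdb1 KO replicate 3 stood apart in H3K9me3, with 8.18% of all windows' bases under islands against 21.4% and 16.8% in the other replicates of its group. H3K9Ac over 7 melanocyte genes summed to 190 to 327 RPM in MC38 Setdb1 KO, 205 to 285 in MC38 control, 926 to 1308 in B16 Setdb1 KO and 959 to 1580 in B16 control libraries, with Dct, Tyrp1 and Tyr at 0 in MC38. Summed levels over 8 gut epithelium genes overlapped between the lines, at 150 to 195, 152 to 179, 147 to 180 and 135 to 181 RPM in the same order. H3K9Ac over Setdb1 averaged 111 ± 5.24 RPM in MC38 Setdb1 KO and 96.2 ± 7.73 RPM in MC38 control libraries, and 78.8 ± 8.98 RPM in B16 Setdb1 KO and 76.6 ± 5.06 RPM in B16 control libraries (SD, n = 3 each). This mark over the promoter does not check whether a guide cut the coding sequence.

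H3K9me3 was widespread in the complex and H3K9Ac was sparse. H3K9me3 islands were present in all 12 libraries in 89 of the 580 windows, which is 15.3%, against 2.14% of all windows. No library had an H3K9me3 island in 34 windows (5.86%), against 42.0% of all windows. For H3K9Ac the order was the other way, with islands in all 12 libraries in 32 windows (5.52% against 13% of all windows) and in none in 393 (67.8% against 58.4%). H3K9Ac reads lay largely in the proximal flank, with Nrip2, Itfg2 and the co-chaperone gene Fkbp4, and in the Nkrp1 and Clec2 block. In the Nkrp1 and Clec2 block they summed to 248 ± 47.6 RPM in MC38 Setdb1 KO, 302 ± 12.8 RPM in MC38 control, 220.5 ± 32.6 RPM in B16 Setdb1 KO and 221 ± 77.9 RPM in B16 control libraries (SD, n = 3 each). In the proximal flank they summed to 174 ± 27.6, 180.3 ± 14.1, 262 ± 27.3 and 259 ± 15.0 RPM in the same order, over fewer windows. Other peaks stood at Gabarapl1 in the middle and at Magohb, an exon junction protein gene, at the far end.

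**Figure D1:**
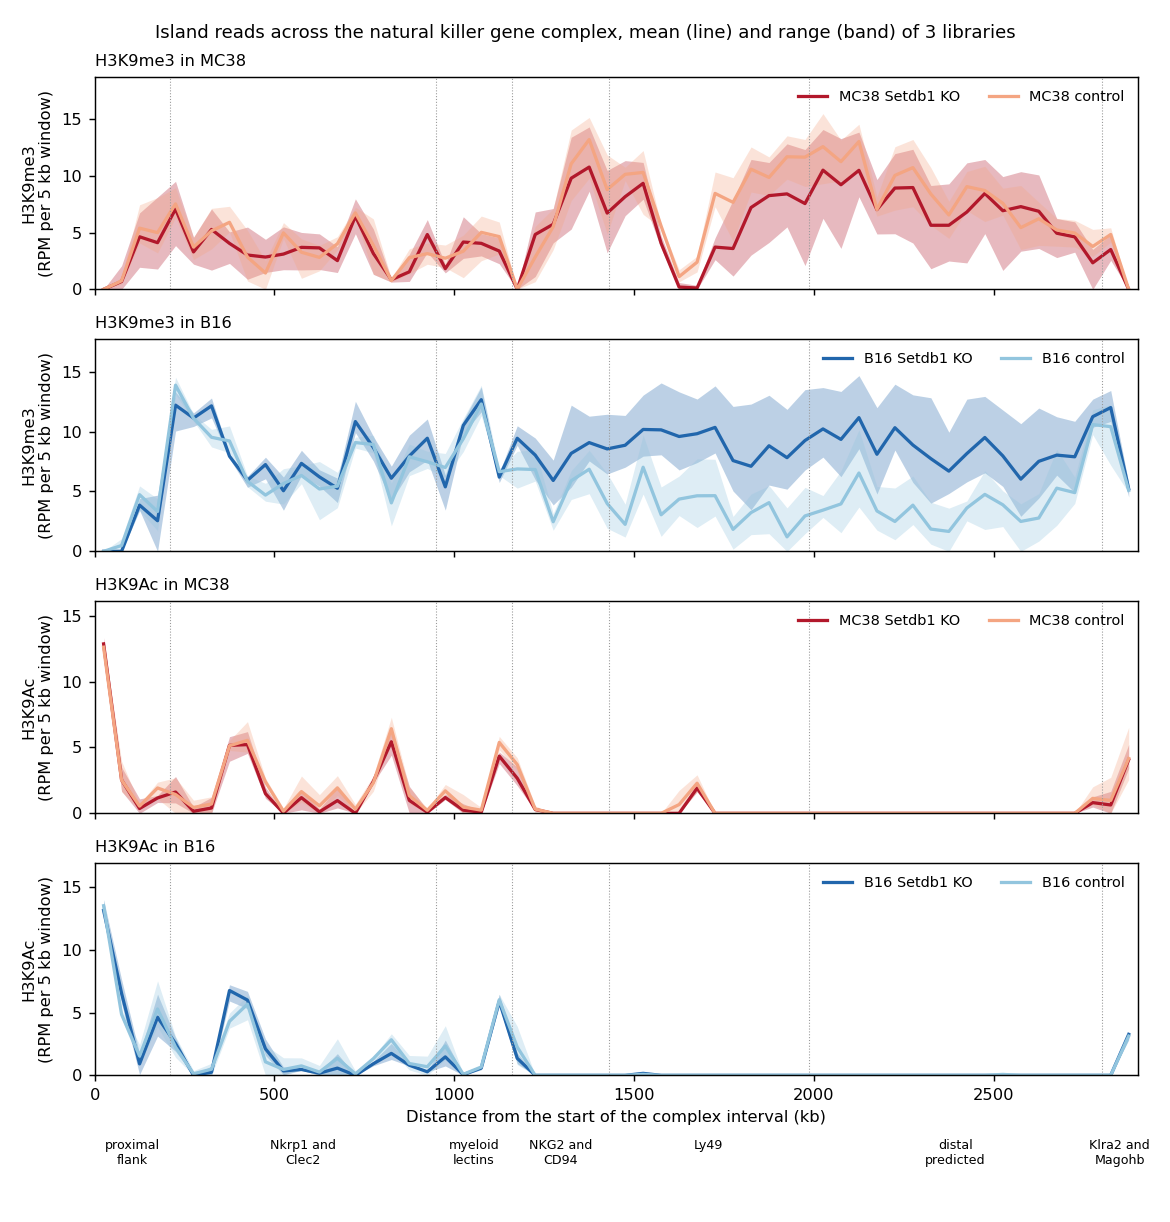
Island reads (RPM per 5 kb window) of both marks in both lines along the complex, by distance from its start in kb; lines are means and bands the range of 3 libraries. H3K9me3 reaches across all receptor blocks, while H3K9Ac stands at the proximal flank, in the Nkrp1 and Clec2 block and at separate peaks, and is near 0 over most of the Ly49 block and the distal stretch.

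Gabarapl1 and Magohb carried H3K9Ac in every library. Gabarapl1 had 30.3, 38.2 and 31.9 RPM in MC38 Setdb1 KO, 36.4, 39.9 and 30.2 RPM in MC38 control, 39.8, 42.5 and 39.5 RPM in B16 Setdb1 KO and 44.0, 43.6 and 43.1 RPM in B16 control libraries. The B16 libraries overlapped those of MC38 narrowly, and neither KO contrast nor the line contrast passed (smallest adjusted p = 0.12 by edgeR's quasi-likelihood test, for MC38 control against B16 control, log2 -0.29 ± 0.12 SE). Magohb had 27.2, 31.8 and 23.8 RPM in MC38 Setdb1 KO, 22.6, 32.4 and 19.1 RPM in MC38 control, 24.1, 28.2 and 28.5 RPM in B16 Setdb1 KO and 29.5, 28.6 and 28.2 RPM in B16 control libraries, so all groups overlapped.

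In B16 cells the complex carried more H3K9me3 in Setdb1 KO than in control libraries. Islands covered 73.0%, 51.7% and 59.0% of its bases in B16 Setdb1 KO, against 45.4%, 34.8% and 37.1% in B16 control libraries. The lowest KO library stood above the highest control library. Summed over the complex, H3K9me3 was 5843, 3983 and 4257 RPM in B16 Setdb1 KO and 3711, 2763 and 2870 RPM in B16 control libraries, a ratio of means of 1.51. Coverage over all windows also moved with genotype, at 15.3% ± 1.22 in B16 Setdb1 KO and 11.9% ± 0.890 in B16 control libraries (SD, n = 3 each), and its part in the result was not tested. Island reads were 27155542, 18635578 and 23614143 in KO and 22738345, 15200766 and 16588008 in control libraries, and their part in the result was not tested either.

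Of the 7 blocks of the complex, the 3 with the widest gaps in coverage between B16 Setdb1 KO and B16 control were the NKG2 genes, the Ly49 genes and a stretch of predicted genes beyond them. In the Ly49 block (chr6:129830001-130385000) islands covered 91.0%, 52.9% and 64.5% of bases in B16 Setdb1 KO, against 41.8%, 14.5% and 26.2% in B16 control libraries, and summed reads were 2.52 times as high. In the distal stretch of predicted genes (chr6:130385001-131200000) the coverage was 67.6% ± 20.04 in KO and 31.9% ± 11.8 in control libraries (SD, n = 3 each), and summed reads were 2.12 times as high. The KO and control libraries did not overlap in either block, and replicate 1 was the highest of its group in both. In the NKG2 and CD94 block (chr6:129560001-129830000) coverage was 63.8% ± 11.9 in KO and 43.9% ± 2.44 in control libraries, with no overlap. The Nkrp1 and Clec2 block (chr6:128610001-129350000) had a smaller gap, at 60.6% ± 3.01 in KO and 52.5% ± 2.14 in control libraries, also with no overlap, and summed reads were 1.09 times as high. In the myeloid lectin block the coverage was 59.9% ± 2.13 in KO and 58.7% ± 4.47 in control libraries, and in the proximal flank 14.5% ± 6.12 in KO and 19% ± 1.27 in control libraries, and both overlapped. The Klra2 and Magohb end overlapped too, at 61.4% ± 5.89 in KO and 51.3% ± 9.77 in control libraries. Blocks were compared by these values only, with no test between them.

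**Figure D2:**
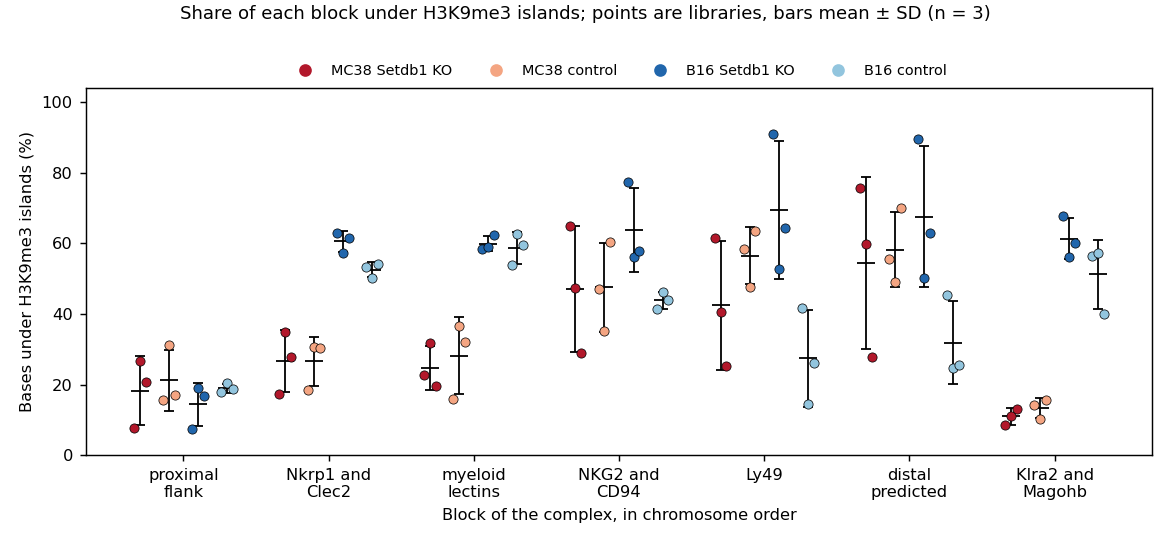
Share of bases under H3K9me3 islands (%) in 7 blocks of the complex in chromosome order; points are libraries, bars the mean ± SD of 3. In the Ly49 block the B16 Setdb1 KO libraries lie at 52.9% to 91.0% and the B16 control libraries at 14.5% to 41.8%, while in the myeloid lectin block these groups overlap.

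Window by window, edgeR called 11 windows of the complex higher in B16 Setdb1 KO than in B16 control, of 531 tested, which is 2.07%, and none lower. Over all tested windows 0.295% were called higher and 0.0904% lower. Unadjusted p was under 0.05 for 52 windows in the higher and 1 in the lower direction, limma called 17 higher and 1 lower, and DESeq2 45 higher and 2 lower. Without B16 control replicate 1, the control library with most H3K9me3 in the complex, edgeR called 29. The 11 windows lay in the NKG2 and CD94 block (2), the Ly49 block (6) and the distal stretch (3). All 11 had no island in the 3 B16 control libraries. Without regard to p, all 3 KO libraries exceeded all 3 control libraries in 109 of the 531 windows (20.5%), against 5.33% of all tested windows, and lay below them in 17 (3.20%), against 4.24%. In these libraries 537 windows of the complex had an island. Of these, 26 had at least 500 bp under islands in every KO library and no island in any control library. The reverse held in 1. Over all windows with an island the shares were 2.16% and 1.25%, and leaving out 1 library, which relaxes this rule, gave 31 to 76 windows in both directions together.

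The share above was 35.5% in the Ly49 block, with 39 of 110 windows, and 30.8% in the distal stretch, with 49 of 159. The median log2 ratio of group means was 1.53 in the Ly49 block and 1.09 in the distal stretch, over windows with reads in both groups, and 0.12 over all windows.

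The 6 runs named by smallest p were these, each with 0 RPM in all 3 B16 control libraries. The run with the smallest p, chr6:129890001-129900000, spans the small nuclear RNA gene Gm23977 and reaches into Klra5. Its leading window had 13.9, 10.3 and 11.5 RPM in the KO libraries (edgeR adjusted p = 0.00088). The window chr6:129870001-129875000 in Klra17 had 13.9, 10.2 and 8.87 RPM (adjusted p = 0.0020). The SD of the 3 KO libraries was 1.83 RPM in the first window and 2.60 RPM in the second. The window chr6:130370001-130375000 in Klra1 had 13.1, 8.77 and 8.09 RPM (adjusted p = 0.0059). The window chr6:130340001-130345000, between genes and nearest to Klra3, had 13.5, 7.0 and 10.0 RPM (adjusted p = 0.0048). Beyond the Ly49 genes, 2 windows at predicted genes varied more among the KO libraries. The window chr6:130485001-130490000 at LOC115486437 had 13.5, 4.76 and 9.87 RPM (adjusted p = 0.0046). The window chr6:130405001-130410000 at Gm6584 had 13.8, 2.94 and 4.52 RPM (adjusted p = 0.013), with replicate 1 far above the others. With only islands above the lowest 25% in read density (stricter islands), the calls in Klra17, in Klra1, near Klra3 and at LOC115486437 were lost. The call at Gm6584 was lost with a replicate block. All 6 runs fell short of the threshold when only the 6 B16 libraries were fitted, where no window of the complex was called. The 11 windows were thus called in the fit that includes the MC38 libraries, and all 11 carried islands in all 6 of those. Of the 31 windows in which 1 B16 group had an island of any length in every library and the other had none, 12 carried islands in all 6 MC38 libraries.

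The 14 Ly49 genes counted here include the pseudogenes Klra11-ps, Klra13-ps and Klra14-ps. Gene by gene, they were under H3K9me3 islands in all 3 B16 Setdb1 KO libraries at 14 of 14 genes, against 7 of 14 in B16 control libraries. KO exceeded control without overlap at 7 of the 14, against 5.89% of all tested genes, and the median log2 ratio over the 13 with reads in both groups was 1.46, against 0.06 over all genes with reads in both. No Ly49 gene region passed edgeR's test (unadjusted p under 0.05 for 2, 0 called by limma and 1 by DESeq2), and in the whole complex 1 of 96 tested genes did. Among all tested genes 0.164% were called higher and 0.148% lower. Without regard to p, KO lay above control without overlap at 25 of the 96 genes, against that 5.89%, and below at 6, against 9.44%. The gene called was Gm23977, with 25.9, 6.02 and 16.6 RPM in KO and 0 in all 3 control libraries (edgeR adjusted p = 0.030), and the call was lost under 9 of 20 other settings.

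Klra17 and Klra5 open the Ly49 block. Klra17 had 251, 151 and 167 RPM in B16 Setdb1 KO and 125, 49.4 and 58.4 RPM in B16 control libraries (log2 1.29 ± 0.53 SE, edgeR adjusted p = 0.60). Klra5 had 111, 40 and 42.5 RPM in KO and 34.0, 0 and 5.29 RPM in control libraries (2.30 ± 1.53 SE, adjusted p = 0.69). In both genes all KO libraries were above all control libraries, and replicate 1 was the highest of either group. Klra1, at the other end of the block, had 157, 69.8 and 70.7 RPM in KO and 52.6, 9.99 and 0.540 RPM in control libraries (2.23 ± 1.19 SE, adjusted p = 0.62). The pseudogene Klra14-ps had 86.7, 19.4 and 27.1 RPM in KO libraries and no island in control libraries (adjusted p = 0.51). The pseudogene Klra13-ps had 112, 36.5 and 33.4 RPM in KO and 0, 0 and 13.5 RPM in control libraries (adjusted p = 0.62). Klra8, whose product is Ly49H, an activating receptor for a protein of mouse cytomegalovirus in C57BL/6 mice, overlapped between the groups. It had 109, 41.0 and 49.9 RPM in KO and 93.1, 47.5 and 44.5 RPM in control libraries (0.11 ± 0.75 SE).

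**Figure D3:**
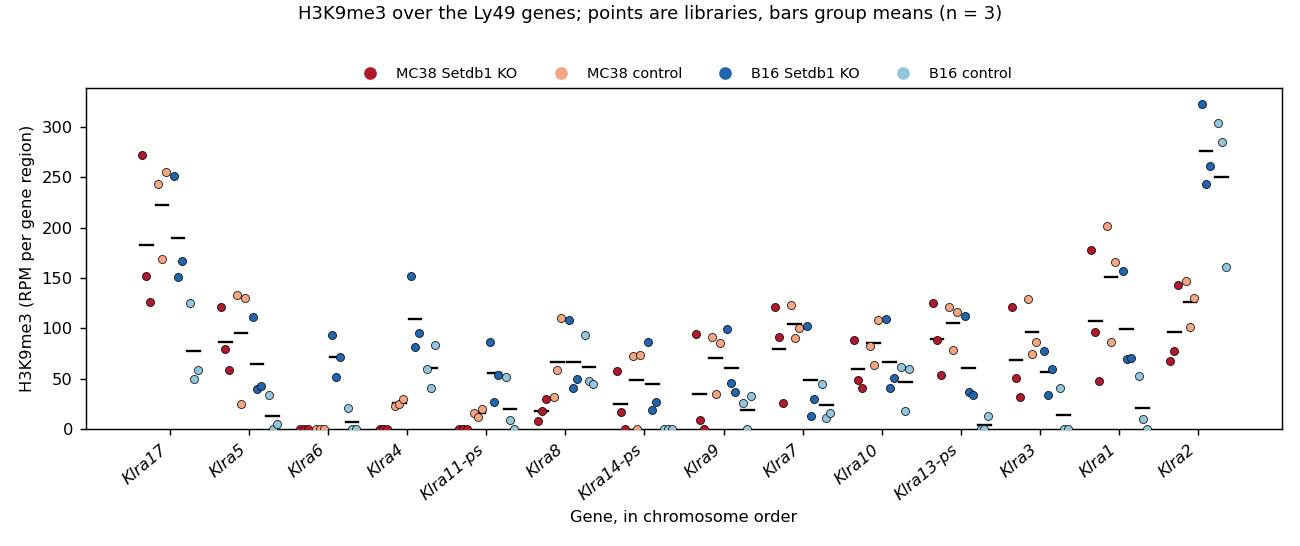
H3K9me3 over the Ly49 genes (RPM per gene region) in chromosome order; points are libraries, bars the group mean of 3. B16 Setdb1 KO libraries are above the B16 control libraries at Klra17, Klra5 and Klra1 and overlap them at Klra8 and Klra2, and Klra6 has no island in any MC38 library.

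The other families had median ratios in B16 nearer to that of all genes. The 15 Nkrp1 receptor and Clec2 ligand genes had a median log2 ratio of 0.04, and the 7 myeloid lectin genes of -0.01, against 0.06 over all genes. Klrb1c, the gene of NK1.1, had 90.6, 88.5 and 86.2 RPM in B16 Setdb1 KO and 114, 81.6 and 96.5 RPM in B16 control libraries. Clec7a had 96.5, 72.0 and 80.6 RPM in KO and 69.8, 102 and 78.4 RPM in control libraries. Both overlapped. Cd69, an early activation antigen of lymphocytes, had 39.4, 49.1 and 49.9 RPM in KO and 50.4, 26.3 and 62.5 RPM in control libraries. Olr1, the gene of the oxidised LDL receptor LOX-1, had 204, 190 and 166 RPM in KO and 199, 201 and 188 RPM in control libraries. These groups overlapped as well.

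The 9 genes of the NKG2 and CD94 group had a median log2 ratio of 0.37 in B16. Klrd1, the gene of CD94, had 87.3, 76.8 and 79.6 RPM in B16 Setdb1 KO and 50.0, 75.1 and 60.2 RPM in B16 control libraries (0.39 ± 1.54 SE, edgeR adjusted p = 1). The lowest KO library was just above the highest control library. Klrk1 had 84.6, 67.8 and 46.0 RPM in KO and 21.4, 48.0 and 51.8 RPM in control libraries. Klrc1, the gene of NKG2A, had 65.4, 59.8 and 20.1 RPM in KO and 0, 19.3 and 43.0 RPM in control libraries. Both of these overlapped.

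H3K9Ac gave no edgeR call by genotype in B16 cells. None of the 166 tested windows was called, with 0.142% called higher and 0.0178% called lower over all tested windows. Unadjusted p was under 0.05 for 4 windows in the higher and 5 in the lower direction, limma called 0, and DESeq2 called 3 higher and 7 lower. All KO libraries lay above all control libraries in 6 windows and below in 4, against 4.49% and 2.4% of all tested windows. Of 132 windows with an island, 1 had islands of at least 500 bp in every KO and no control library. The reverse held in 0. Over all windows with an island the shares were 0.737% and 0.0992%. None of the 51 tested genes was called either, with 0.0629% and 0.021% of all tested genes called higher and lower (unadjusted p under 0.05 for 1, limma 0, DESeq2 3 lower). Summed over the complex, H3K9Ac was 611 ± 54.8 RPM in B16 Setdb1 KO and 626 ± 103 RPM in B16 control libraries (SD, n = 3 each). The window with the smallest p lay in Klre1 at chr6:129580001-129585000, with 0 in all 3 KO and 2.58, 0 and 8.26 RPM in control libraries (edgeR adjusted p = 0.50). H3K9Ac at Klre1, a receptor gene next to Klrd1, was also present in KO libraries, and the whole gene region had 12.5, 8.87 and 17.1 RPM in KO and 18.1, 8.23 and 37.9 RPM in control libraries.

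In MC38 cells, where the interval was chosen, H3K9me3 over the whole complex overlapped between the genotypes. Islands covered 46.1%, 42.5% and 25.8% of bases in MC38 Setdb1 KO, against 38.7%, 39.3% and 49.4% in MC38 control libraries. KO replicate 3, the library that stood apart, was the lowest. With it the difference of means was -4.31 percentage points, and without it 1.83. In the Ly49 block coverage was 61.6%, 40.5% and 25.4% in KO and 58.5%, 47.7% and 63.5% in control libraries.

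The window chr6:130050001-130055000 inside Klra4, the gene on which the interval was chosen, had no island in the 3 KO libraries and had 6.62, 7.83 and 6.74 RPM in control libraries. The next window, chr6:130055001-130060000, also had no island in KO libraries and 1.83, 2.63 and 4.53 RPM in control libraries. All 3 KO libraries were below all 3 control libraries in 29 of 531 windows (5.46%), against 1.6% of all tested windows, and above them in 2, against 0.629%. Of 473 windows with an island, 3 had islands of at least 500 bp in every control and no KO library. The reverse held in 0. Over all windows with an island the shares were 0.288% and 0.15%. Without 1 library the 3 windows became 5 to 16. KO lay below control without overlap at 5 of 96 genes and above at 1, against 1.73% and 0.596% of all tested genes.

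Over the Klra4 gene region H3K9me3 was 0 in all 3 KO libraries and 22.5, 25.3 and 29.9 RPM in control libraries. The neighbouring pseudogene Klra11-ps was also at 0 in all 3 KO libraries and had 16.3, 11.9 and 20.3 RPM in control libraries.

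Klra4, whose product Ly49D is an activating receptor, had H3K9me3 islands in both genotypes of the other line. Its level was 152, 81.8 and 95.4 RPM in B16 Setdb1 KO and 59.6, 40.3 and 83.5 RPM in B16 control libraries (log2 0.84 ± 0.63 SE, edgeR adjusted p = 0.87), and control replicate 3 reached above the lowest KO library. In MC38 control libraries the H3K9me3 islands of the gene were short and lay in its middle, at chr6:130052801-130055600 in replicate 1, chr6:130052601-130055800 in replicate 2 and chr6:130052001-130057000 in replicate 3. The same stretch held islands in all 6 B16 libraries.

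H3K9Ac at Klra4 was found in MC38 and not in B16. In MC38 Setdb1 KO libraries the islands lay at chr6:130061401-130065400, chr6:130059401-130066400 and chr6:130061401-130066200. In MC38 control libraries they lay at chr6:130061401-130066400, chr6:130059401-130066400 and chr6:130061401-130066200, and replicate 2 had 2 more islands within the gene. These islands lay inside the gene near its 5′ end and stopped short of the 300 bases of promoter printed above. Over the gene region H3K9Ac was 15.4, 24.6 and 17.4 RPM in MC38 Setdb1 KO and 22, 34.1 and 16.7 RPM in MC38 control libraries (log2 -0.34 ± 0.37 SE), so the genotypes overlapped. No B16 library had an H3K9Ac island in the gene region.

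**Figure D4:**
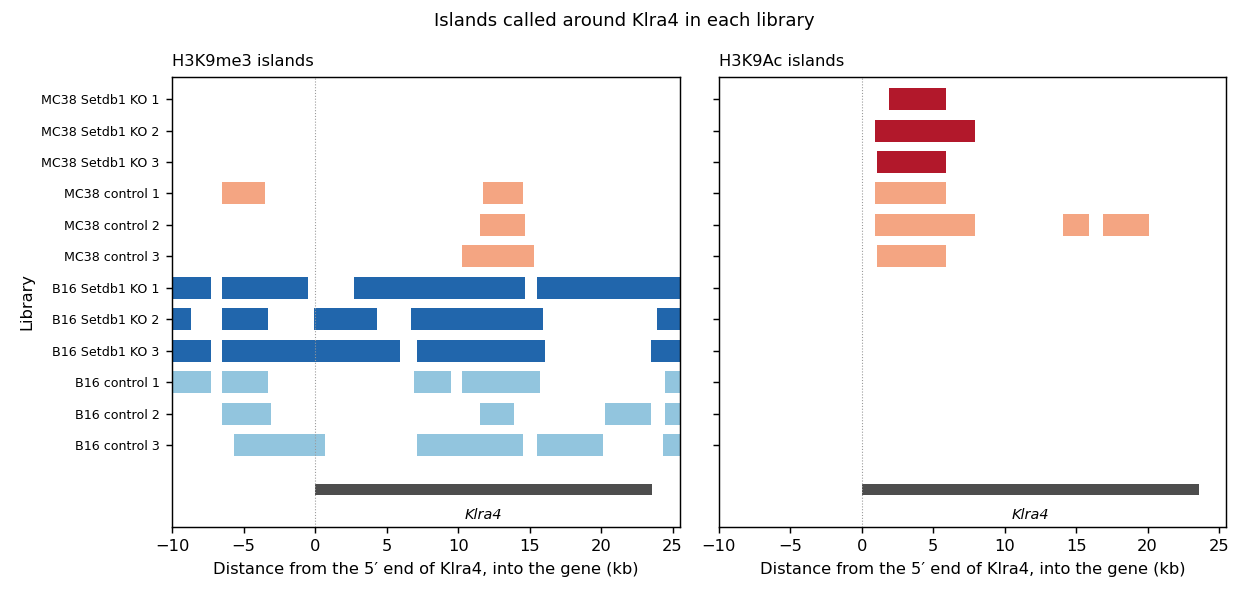
Islands called around Klra4 in each library, by distance from the 5′ end of the gene into the gene in kb, with H3K9me3 and H3K9Ac in separate panels. The H3K9me3 islands in the middle of the gene are absent from the 3 MC38 Setdb1 KO libraries, and the H3K9Ac islands near the 5′ end are present in all 6 MC38 libraries and in no B16 library.

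H3K9Ac elsewhere in the complex gave no edgeR call between MC38 Setdb1 KO and MC38 control, over 166 windows or 51 genes. Over all tested windows 0.05% were called higher and 0.0297% lower, and over all tested genes 0.0839% and 0.042%. Unadjusted p was under 0.05 for 2 windows in the higher and 4 in the lower direction and for 0 genes, limma called 0 windows and 0 genes, and DESeq2 called 3 windows in each direction and 0 genes. All KO libraries lay above all control libraries in 0 windows and below in 3, against 1.84% and 1.86% of all tested windows. Of 163 windows with an island, 0 had islands of at least 500 bp in every KO and no control library. The reverse held in 1. Over all windows with an island the shares were 0.256% and 0.178%. The level summed over the complex was 585 ± 72.4 RPM in MC38 Setdb1 KO and 693 ± 88.0 RPM in MC38 control libraries (SD, n = 3 each). In the myeloid lectin block it was 65.6 ± 8.49 RPM in KO and 86.6 ± 20.1 RPM in control libraries, with no overlap. Islands covered 13.7% of this block in KO and 19.8% in control libraries, also with no overlap. The other blocks overlapped, and no test was made between blocks.

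The control cells of the lines differed in H3K9me3, in opposite directions along the complex. MC38 control had less of it than B16 control over the Nkrp1 and Clec2 block, the myeloid lectin block and the Klra2 and Magohb end, and more over the Ly49 block and the distal stretch. Both groups serve in the KO comparisons above, so these values are not independent of them. Summed reads in MC38 control were 0.513 times those of B16 control in the Nkrp1 and Clec2 block, 0.447 times in the myeloid lectin block and 0.312 times at the Klra2 and Magohb end. They were 2.24 times as high in the Ly49 block and 2.00 times in the distal stretch. The libraries of the lines did not overlap in any of these 5 blocks, while in the NKG2 and CD94 block they did, at a ratio of 1.23. Summed over the whole complex the lines overlapped, at 3492, 3150 and 3939 RPM in MC38 control and 3711, 2763 and 2870 RPM in B16 control libraries.

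Among the 531 tested windows, H3K9me3 was called higher in MC38 control than in B16 control in 19 (3.58%) and lower in 20 (3.77%) by edgeR. Over all tested windows 4.23% were called higher and 2.8% lower, so these shares are near those of all windows. All 3 MC38 control libraries exceeded all B16 control libraries in 21.5% of the windows, against 15.2% of all tested windows, and lay below them in 16%, against 12.3%. Of 531 windows with an island, 24 had islands of at least 500 bp in every MC38 control and no B16 control library. The reverse held in 29. Over all windows with an island the shares were 9.15% and 6.52%, both larger than in the complex. Leaving out 1 library raised the 53 windows of both directions to 60 to 107. The higher windows lay in the Ly49 block (11), the distal stretch (6) and the NKG2 and CD94 block (2). The lower ones lay in the Nkrp1 and Clec2 block (6), the NKG2 and CD94 block (5), the Klra2 and Magohb end (5), the distal stretch (3) and the Ly49 block (1).

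The leading lower windows had no island in any MC38 control library. At chr6:128650001-128660000, over Clec2j and the predicted gene Gm34617, the leading window had 14.6, 14.3 and 14.5 RPM in B16 control libraries (edgeR adjusted p = 0.0038). At chr6:131245001-131265000, around the 5′ end of Klra2, it had 15.9, 11.2 and 14 RPM (adjusted p = 0.0039). The B16 control libraries had an SD of 0.151 RPM at the first and 2.37 RPM at the second. At chr6:129560001-129565000 in Klre1 they had 10.4, 15.0 and 9.95 RPM (adjusted p = 0.0046). At chr6:128790001-128795000, near Klrb1c, they had 11.9, 12.6 and 11.2 RPM (adjusted p = 0.0049). These 4 places span the Nkrp1, NKG2 and Klra2 parts of the complex. The calls of all 4 leading windows were lost in a fit with a replicate block, and the one near Klrb1c also with stricter islands. Of the windows higher in MC38 control, the leading run was chr6:129890001-129900000 at Gm23977 and Klra5, with 16.5, 14.3 and 13.9 RPM in MC38 control libraries and 0 in all 3 B16 control libraries (adjusted p = 0.00084). The window in Klra17 followed, with 6.62, 13.5 and 12.7 RPM in MC38 control libraries (adjusted p = 0.0021), a call that was lost with stricter islands.

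Of the 96 tested gene regions, 7 (7.29%) were lower and 2 (2.08%) higher in H3K9me3 in MC38 control than in B16 control by edgeR, with 4.31% and 2.82% of all tested genes lower and higher. Without regard to p, MC38 control lay above B16 control without overlap at 26 genes and below at 29, against 13.6% and 20.7% of all tested genes. The lower ones by edgeR were Clec2j, Gm34617, Gm26160, 2310001H17Rik, Klre1, Gm5582 and Styk1. Klre1 was at 0 in all 3 MC38 control libraries and had 90.1, 122 and 115 RPM in B16 control libraries (edgeR adjusted p = 0.0025). Clec2j was at 0 in MC38 control libraries and had 36.2, 36.8 and 39.0 RPM in B16 control libraries (adjusted p = 0.0073). Klre1 and Clec2j were at 0 in the MC38 Setdb1 KO libraries as well. Klrd1, next to Klre1, had 0, 6.37 and 0 RPM in MC38 control libraries and 50.0, 75.1 and 60.2 RPM in B16 control libraries (adjusted p = 0.14), with no overlap. The higher ones were the small RNA gene Gm23977 (adjusted p = 0.0053) and the pseudogene Gm27047 (adjusted p = 0.024). The calls of 2310001H17Rik (adjusted p = 0.040), Gm26160 (0.020) and Gm27047 were lost under 11, 5 and 6 of 20 other settings. Those of Clec2j, Gm34617 and Gm5582 were lost with the replicate block.

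The myeloid lectin genes were lower in MC38 control as a row of values without a gene passing the test. Their median log2 ratio was -1.31, against -0.15 over all genes, and MC38 control lay below B16 control without overlap at 6 of 7 genes, against 20.7% of all tested genes (unadjusted p under 0.05 for 2, 1 called by limma and 1 by DESeq2). Clec12b, the gene of an inhibitory lectin, had 36.0, 97.5 and 33.6 RPM in MC38 control and 180, 200 and 199 RPM in B16 control libraries (-1.79 ± 0.59 SE, edgeR adjusted p = 0.10). Clec7a had 28.9, 26.9 and 45.1 RPM in MC38 control and 69.8, 102 and 78.4 RPM in B16 control libraries (-1.31 ± 0.56 SE, adjusted p = 0.18). Olr1 had 46.4, 146 and 125 RPM in MC38 control and 199, 201 and 188 RPM in B16 control libraries (-0.89 ± 0.49 SE, adjusted p = 0.25). At each of the 3 genes every MC38 control library was below every B16 control library. The 14 Ly49 genes had a median log2 ratio of 1.70, with MC38 control above B16 control without overlap at 7 and below at 2, against 13.6% and 20.7% of all tested genes, and no gene passed (unadjusted p under 0.05 for 6, 4 called by limma and 3 by DESeq2).

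H3K9Ac was called higher in MC38 control than in B16 control in 8 of the 166 tested windows (4.82%) and lower in none, with 4.69% of all tested windows higher and 6.2% lower. The share called higher is thus near that of all windows. Unadjusted p was under 0.05 for 9 windows in the lower direction, limma called 10 higher and 6 lower, and DESeq2 17 higher and 9 lower. All MC38 control libraries lay above all B16 control libraries in 11 windows (6.63%) and below in 15 (9.04%), against 15.2% and 16% of all tested windows. Of 179 windows with an island, 6 had islands of at least 500 bp in every MC38 control and no B16 control library. The reverse held in 3. Over all windows with an island the shares were 4.5% and 5.1%. The 8 called windows lay at Clec2g, Clec2d, 2310001H17Rik, Klra4, Klra2 and Styk1. The highest level was at 2310001H17Rik, a gene with no role given here, where the window chr6:129235001-129240000 had 21.3, 18.7 and 15.1 RPM in MC38 control and 8.15, 5.27 and 7.19 RPM in B16 control libraries (log2 1.42 ± 0.24 SE, edgeR adjusted p = 0.0040). At Klra4 the leading window had 16.4, 18.5 and 12.5 RPM in MC38 control libraries and 0 in all 3 B16 control libraries (adjusted p = 0.00013). The Clec2g window had 3.92, 8.82 and 5.88 RPM in MC38 control libraries and 0 in B16 control libraries (adjusted p = 0.0048).

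By gene region, 5 genes were higher and 1 (1.96%) lower in H3K9Ac in MC38 control, of 51 tested. Of all tested genes 9.8% were higher and 9.59% lower, so the share called higher is that of all genes. Clec2d encodes Clr-b, a ligand of the inhibitory receptor encoded by Klrb1b. It had 20.9, 22.8 and 16.8 RPM in MC38 control and 10.9, 7.62 and 9.38 RPM in B16 control libraries (log2 1.12 ± 0.20 SE, edgeR adjusted p = 0.0031). The KO libraries of each line stood near their controls, at 19.9, 20.03 and 20.5 RPM in MC38 Setdb1 KO and 7.52, 6.63 and 8.68 RPM in B16 Setdb1 KO. All 6 MC38 libraries were thus above all 6 B16 libraries at this gene. Styk1, a protein kinase gene most of which lies beyond the far edge of the interval, had 105, 148 and 94.8 RPM in MC38 control and 13.4, 9.29 and 20 RPM in B16 control libraries (3.02 ± 0.37 SE, adjusted p = 0.00051). The H3K9me3 of Styk1 went the other way, at 0 in all 3 MC38 control libraries and 254, 307 and 270 RPM in B16 control libraries (adjusted p = 0.0017). Klra2 encodes Ly49B, an inhibitory receptor, and lies apart from the other Ly49 genes. It had 7.02, 36.2 and 8.48 RPM of H3K9Ac in MC38 control libraries and none in B16 control libraries (adjusted p = 0.0032), with replicate 2 far above the others. The lower gene was the predicted gene Gm8719, with 0 in MC38 control libraries and 2.27, 1.31 and 1.19 RPM in B16 control libraries (adjusted p = 0.018).

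**Figure D5:**
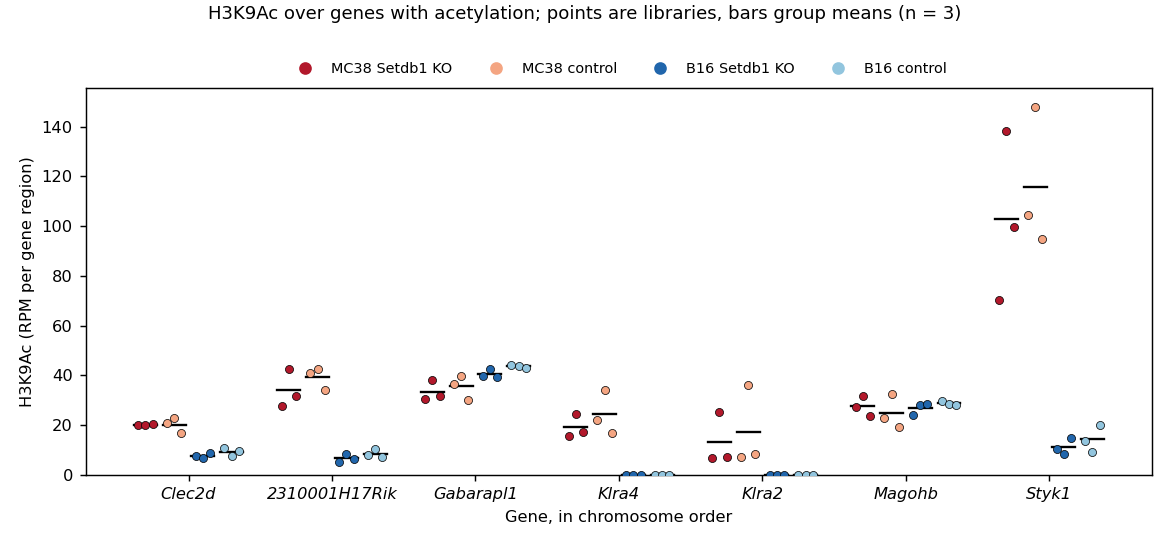
H3K9Ac over genes of the complex (RPM per gene region) in chromosome order; points are libraries, bars the group mean of 3. MC38 libraries of both genotypes are above B16 libraries at Clec2d, 2310001H17Rik and Klra4, while Gabarapl1 and Magohb carry the mark in every library.

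Of the 14 Ly49 genes, H3K9Ac islands were found at Klra4 and Klra2 in all 6 MC38 libraries and at Klra6 in 1 MC38 control library, and at none in the 6 B16 libraries. At Klra2 the stretch under islands in all 6, chr6:131197601-131199400, lay near the 3′ end of the gene, far from its promoter. MC38 Setdb1 KO replicate 3 and MC38 control replicate 1 had no H3K9Ac island at its 5′ end. H3K9Ac over marker genes of the cells that use these receptors was read in the same libraries. Over 9 leukocyte genes the summed level was 92.1 to 139 RPM in MC38 Setdb1 KO, 84.3 to 113 in MC38 control, 91.6 to 116 in B16 Setdb1 KO and 92.7 to 97.0 in B16 control libraries. Gzmb and the natural killer marker gene Ncr1 were at 0 in all 12 libraries, and in each group 6 or 7 of the 9 genes had reads. The part of other cells in these values was not tested.

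Some windows carried islands of both marks. Of the windows of the complex with H3K9Ac islands in all 3 libraries of a group, H3K9me3 islands were also present in all 3 in 0 of 58 in MC38 Setdb1 KO, 3 of 62 in MC38 control, 17 of 64 in B16 Setdb1 KO and 12 of 56 in B16 control. These are 0%, 4.84%, 26.6% and 21.4%, against 0.589%, 1.1%, 3.34% and 4.34% over all windows in the same order. Among all 580 windows of the complex, H3K9me3 islands were present in all 3 in 35%, 46.9%, 70.2% and 39.7%, in that order. In every group, windows with H3K9Ac thus carried H3K9me3 less often than the windows of the complex in general. The marks were measured in separate libraries, and no test was made between the groups.

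Outside the complex, genes of its pathway were read from lists of ligands and of adaptors and effectors. The ligand list had 9 genes in the table. Among them were the NKG2D ligand genes H60b and H60c and B2m, whose product is a subunit of MHC class I molecules. The other list had 11 genes, among them the adaptor genes Tyrobp and Hcst. For H3K9me3, 5 of the 9 ligand genes and 8 of the 11 others had enough reads to be tested, and for H3K9Ac 8 of each list. Leaving aside H3K9me3 in MC38 Setdb1 KO against MC38 control, no gene of either list passed edgeR for either mark (in each list and contrast, unadjusted p under 0.05 for 0 to 3 genes, 0 to 2 called by limma and 0 to 4 by DESeq2). Over all tested genes, 0.021% to 9.8% were called in 1 direction in these contrasts.

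The windows at the edges of the interval show what it leaves out. The first window inside, chr6:128400001-128405000, and the one before it had no H3K9me3 island in any library. The last one inside, chr6:131295001-131300000, had H3K9me3 of 11.6 ± 1.20 RPM in B16 Setdb1 KO and 10.1 ± 0.767 RPM in B16 control libraries (SD, n = 3 each) and none in MC38. The next window outside had 11.3 ± 2.28 RPM in B16 Setdb1 KO and 12.4 ± 3.19 RPM in B16 control libraries and none in MC38, so the H3K9me3 of B16 ran across the far edge.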

How the data were processed

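H3K9me3 and H3K9Ac were measured by chromatin immunoprecipitation and sequencing in 24 libraries, and 4 inputs were not analysed here. The tools named in the submitters' processing notes are cutadapt, Bowtie2 2.1.0 with build mm10, SAMtools 0.1.8, deepTools 3.1.1 and the island caller SICER 1.1. The deposited values are whole read counts per island of 1 library, per the labels and from the values, with no scaling between libraries. Which input served as background was not given in the sources used here.

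Island reads were apportioned by overlap to 5 kb windows and to gene regions (gene body and 2 kb on each side, RefSeq table of GRCm38.p6) and rounded. Regions with a mean of at least 10 reads over the 12 libraries of a mark were fitted with edgeR 4.0.16 (quasi-likelihood, TMM, trended dispersion, R 4.3.3) in 1 fit per mark. A region was called where its p, adjusted by Benjamini-Hochberg over all tested regions, was under 0.05. The SE given with a log2 value is the size of that value over the square root of edgeR's F statistic. It rests on the fit of all 12 libraries of a mark and does not measure the spread of the 6 libraries compared alone. Where no tool is named, an adjusted p is from edgeR. Alternatives were limma 3.58.1 on log2(RPM + 0.5), DESeq2 1.42.0, other scalings and filters, islands above the lowest 25% in read density, the 6 libraries compared, a replicate block and leaving out each library. The fits were also run on simulated data, and no result above rests on that run.

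Replicate numbers paired the H3K9Ac libraries of KO and control, whose deviations correlated at 0.228 to 0.489 in B16 and 0.124 to 0.445 in MC38, and the blocked fit also called 0 windows and 0 genes there. The rule named up to 6 called runs of windows in each direction by smallest p (with fewer than 3, windows were added up to 3), up to 3 genes of each family, and 10 receptor and reference genes. The members and lists were chosen with earlier results of these data known, and calls of the contrast used to choose the interval, H3K9me3 in MC38 Setdb1 KO against MC38 control, are not reported. Overlapping genes share reads that the counts do not separate, and closely similar genes may do so too.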

Additional observations from a re-analysis of the deposited data

How the results depend on the processing

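The 40 windows and genes named from called results had the same direction under all 20 other settings, and 0 reversed. Where a group had no island in any of its libraries, that 0 fixed the direction beforehand, so this gives no support there. It was so for every H3K9me3 window among them and for most of the H3K9Ac windows. DESeq2 size factors, total island reads, limma and DESeq2 lost 0 of the 40 calls, no minimum count 1, the fit with only the 6 libraries compared 9, stricter islands 12 and leaving out 1 library 0 to 4. What follows gives the values that moved, and the cause was not tested.

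For H3K9me3 in B16 Setdb1 KO against B16 control, the 11 called windows became 0 with only the 6 libraries compared, 18 with limma and 47 with DESeq2, and 8 to 29 without 1 library. The 1 called gene became 0 with only the 6 libraries, 4 with stricter islands, 3 with limma and 8 with DESeq2, and 0 to 6 without 1 library. The 27 windows with islands in every library of 1 group and in none of the other became 31 to 76 without 1 library.

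For H3K9me3 in MC38 Setdb1 KO against MC38 control, the 3 all-or-none windows became 1 where 1000 bp had to be covered, and 5 to 16 without 1 library. The difference in covered share, -4.31 percentage points, ranged from -8.29 to 1.83 without 1 library, and was positive without KO replicate 3.

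For H3K9me3 in MC38 control against B16 control, the 39 windows became 108 with limma and 106 with DESeq2, and 28 to 54 without 1 library. The 9 genes became 26 with limma and 21 with DESeq2, and 6 to 13 without 1 library. The log2 ratio of reads summed over the complex was 0.18, became -0.15 when scaled by total island reads, and was -0.023 to 0.34 without 1 library. The 53 all-or-none windows became 60 to 107.

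For H3K9Ac in B16, DESeq2 called 10 windows and 3 genes where edgeR called 0, leaving out 1 library gave 0 to 1 windows, and the 1 all-or-none window became 2 at 200 bp and 1 to 6 without 1 library. In MC38 DESeq2 called 6 windows, leaving out 1 library gave 0 to 1, and the 1 all-or-none window became 0 with stricter islands and 1 to 4 without 1 library. Between the control lines the 8 windows became 16 with limma and 26 with DESeq2, and 8 to 11 without 1 library. The 6 genes became 10 with limma and 11 with DESeq2, and 5 to 9 without 1 library, and the 9 all-or-none windows became 11 to 18.

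With the replicate block, 15 of the 40 named calls were lost. The block gave 6 windows and 0 genes for H3K9me3 in B16 and 7 windows and 3 genes between the control lines. For H3K9me3, replicate numbers paired the samples weakly or unevenly. The correlation of their deviations was 0.0191 to 0.195 in B16, -0.218 to 0.290 in MC38 and 0.0200 to 0.0983 between the control lines. Samples correlated best with their own number for 2 of 3 numbers in B16, 2 of 3 in MC38 and 3 of 3 between the control lines. For H3K9Ac between the control lines the correlation was 0.0768 to 0.191, with the own number best for 3 of 3, and the block gave 9 windows and 7 genes.

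Islands limit all values: reads outside islands are not in the files, so a 0 can hide reads below the calling threshold, and deeper libraries can yield more islands.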
